A study of Rattus norvegicus with 26 samples.

Results

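The transcripts described here encode 10 enzymes of glycolysis, chosen by their annotated gene symbols in the array's probe table: the hexokinases Hk1 and Hk2, the platelet-type phosphofructokinase Pfkp, the aldolases Aldoa and Aldoc, the phosphoglycerate kinase Pgk1, the enolases Eno1 and Eno2, and the lactate dehydrogenase subunits Ldha and Ldhb. All 10 were measured, out of 14217 genes with a probe set of their own. RNA came from primary cultures of the cerebral cortex of newborn (P1) rats, and the groups were neuronal, astrocytic, oligodendrocytic and microglial cultures with 4 replicates each, and 5 RNA mixtures with 2 replicates each. The labels give no strain, treatment or genetic change for any group, and each array carried biotin-labelled total RNA. The neuronal fraction was 0.25 in NA1, 0.5 in NA2 and 0.75 in NA3, and astrocytic RNA made up the remainder. NAO held neuronal, astrocytic and oligodendrocytic RNA at 0.5, 0.25 and 0.25, and NAOM added microglial RNA at 0.1, with the astrocytic and oligodendrocytic fractions at 0.2 each. Replicate 1 of each mixture drew on neuron replicate 1 and astrocyte replicate 1, and replicate 2 on neuron replicate 2 and astrocyte replicate 4.

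Glycolysis turns glucose into pyruvate in the cytosol. Hexokinase traps glucose as its phosphate, phosphofructokinase commits the sugar to the pathway, aldolase splits it, phosphoglycerate kinase makes ATP, enolase makes the precursor of pyruvate, and lactate dehydrogenase interconverts pyruvate and lactate. Several of these steps are served by isoenzymes from separate genes. Brain contains Hk1 as its main hexokinase, Aldoc and Aldoa as its aldolases, and Eno2, known as neuron-specific enolase, beside the widespread Eno1. Lactate dehydrogenase is a tetramer of the subunits encoded by Ldha and Ldhb, and tetramers rich in the Ldha product are classically linked to lactate production.

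Upstream sequence is shown for the lactate dehydrogenase pair, which behaved differently in the cultures, and for Pfkp and Aldoc, which set neurons and microglia apart from the other cultures. The sequences are RefSeq windows of GRCr8 from 250 bases before to 50 bases after the annotated start, printed in the direction of the gene. The table held windows for 9 of the 10 genes (all but Pgk1). Capitals mark the letters ACGTG or GCGTG, the core of the hypoxia response element, on either strand (CACGT or CACGC in the printed strand), and CACGTG counts as a match on both strands. Ldha lies at chr1:106507842-106508141 on the plus strand, Ldhb at chr4:177177359-177177658 on the minus strand, Pfkp at chr17:68639563-68639862 on the plus strand and Aldoc at chr10:63715294-63715593 on the plus strand.
Ldha: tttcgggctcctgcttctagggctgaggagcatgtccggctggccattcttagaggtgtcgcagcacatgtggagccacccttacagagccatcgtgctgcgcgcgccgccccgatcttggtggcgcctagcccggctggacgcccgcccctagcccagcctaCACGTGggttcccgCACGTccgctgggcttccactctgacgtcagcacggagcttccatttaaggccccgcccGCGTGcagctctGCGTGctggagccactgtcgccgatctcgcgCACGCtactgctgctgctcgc
Ldhb: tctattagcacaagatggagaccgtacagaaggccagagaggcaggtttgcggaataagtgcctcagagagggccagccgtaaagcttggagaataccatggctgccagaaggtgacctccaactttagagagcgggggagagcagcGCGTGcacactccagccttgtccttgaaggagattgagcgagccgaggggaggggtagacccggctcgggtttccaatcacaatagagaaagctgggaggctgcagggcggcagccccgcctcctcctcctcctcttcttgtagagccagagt
Pfkp: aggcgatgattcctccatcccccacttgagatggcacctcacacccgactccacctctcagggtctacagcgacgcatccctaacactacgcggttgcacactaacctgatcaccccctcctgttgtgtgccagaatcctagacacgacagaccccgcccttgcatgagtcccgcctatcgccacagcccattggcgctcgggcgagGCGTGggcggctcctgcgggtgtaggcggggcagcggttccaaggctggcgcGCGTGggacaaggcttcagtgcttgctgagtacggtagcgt
Aldoc: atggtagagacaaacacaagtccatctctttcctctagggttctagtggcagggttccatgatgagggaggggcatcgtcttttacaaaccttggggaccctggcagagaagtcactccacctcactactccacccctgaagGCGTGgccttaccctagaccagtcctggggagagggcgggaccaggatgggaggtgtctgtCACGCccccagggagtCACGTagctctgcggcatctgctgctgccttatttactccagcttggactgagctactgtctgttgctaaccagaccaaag
The Ldha window held 6 matches, the Aldoc window 3, the Pfkp window 2 and the Ldhb window 1. The windows of Hk2 held 0 and of Eno2 1, while Hk1 (2 windows), Aldoa (3) and Eno1 (2) had a match in at least 1 of theirs. A match of either form was present in 41.6% of all 33469 windows in the table, so 9 of the 13 windows of these genes held letters that are common upstream of rat genes, and a match is no evidence of a bound factor.

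The values are log2 expression levels made with Robust Multi-array Average (RMA), and the array medians were 5.33 to 5.41 for mixtures and 5.26 to 5.31 for cultures. A probe set's level depends on its own affinity, so levels were compared between samples for the same gene and not between genes. Cell type markers followed the labels. The log2 of the summed level of 13 neuron markers was 15.03 to 15.13 in neuronal cultures against 9.05 to 12.58 in the other cultures. That of 9 astrocyte markers was 13.96 to 15.42 in astrocytic cultures against 10.05 to 13.90 in the others, with neuron replicates 3 and 4 the highest of the neuronal arrays on the list's mean (8.79 and 8.56, against 6.71 and 7.54 in replicates 1 and 2). The cultures were not pure by these lists. Microglia markers summed to 13.28 to 14.0 in oligodendrocytic cultures and 15.19 to 15.57 in microglial ones, and 1 of the 12 lay below every array median in oligodendrocytic cultures. Oligodendrocyte markers summed to 11.87 to 13.57 in microglial cultures and 13.96 to 15.36 in oligodendrocytic ones. Astrocyte replicate 4 stood apart in fibroblast and meningeal markers, with a list mean of 8.40 against 6.24 to 6.30 in the other astrocytic arrays. The description of microglial replicate 4 reads as a mixture, but its title, its cell type and its microglia marker mean (11.18, the highest of the 4) place it with the microglial cultures. Limma calls that change without any of these arrays are given with and without them.

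Each pair of cultures was compared with limma over 31042 probe sets, and a difference counted as called when its Benjamini-Hochberg adjusted p was under 0.05 and its size at least 1 on the log2 scale. Every call among the 10 genes was higher in the culture named first, in the order neurons, astrocytes, oligodendrocytes and microglia. Neurons exceeded astrocytes in 2 genes, where 24% of all probe sets were called (12% higher and 12% lower). They exceeded oligodendrocytic cultures in 3 genes (21.6% of all probe sets, 11% higher and 10.6% lower) and microglia in 5 (25.7%, 14.1% higher and 11.6% lower). Astrocytes exceeded oligodendrocytic cultures in 2 genes (15.9%, 8.04% higher and 7.85% lower) and microglia in 3 (16.2%, 9.13% higher and 7.05% lower). Oligodendrocytic cultures exceeded microglia in 4 genes (10.6%, 6.27% higher and 4.29% lower). With no minimum on the difference, 2, 4, 6, 3, 5 and 4 of the 10 genes had an adjusted p under 0.05 in these 6 comparisons, beside 44.3%, 41.3%, 51.2%, 34.3%, 38.4% and 26.9% of all probe sets. The counts of 2 genes are close to the shares of all probe sets. The median log2 difference of the 10 genes was 1.24 for neurons against microglia, where that of all probe sets was -0.10, and it lay between -0.05 and 0.45 in the other 5 comparisons. In bulk RNA, fewer cells of a type and less RNA per cell cannot be told apart.

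**Figure D1:**
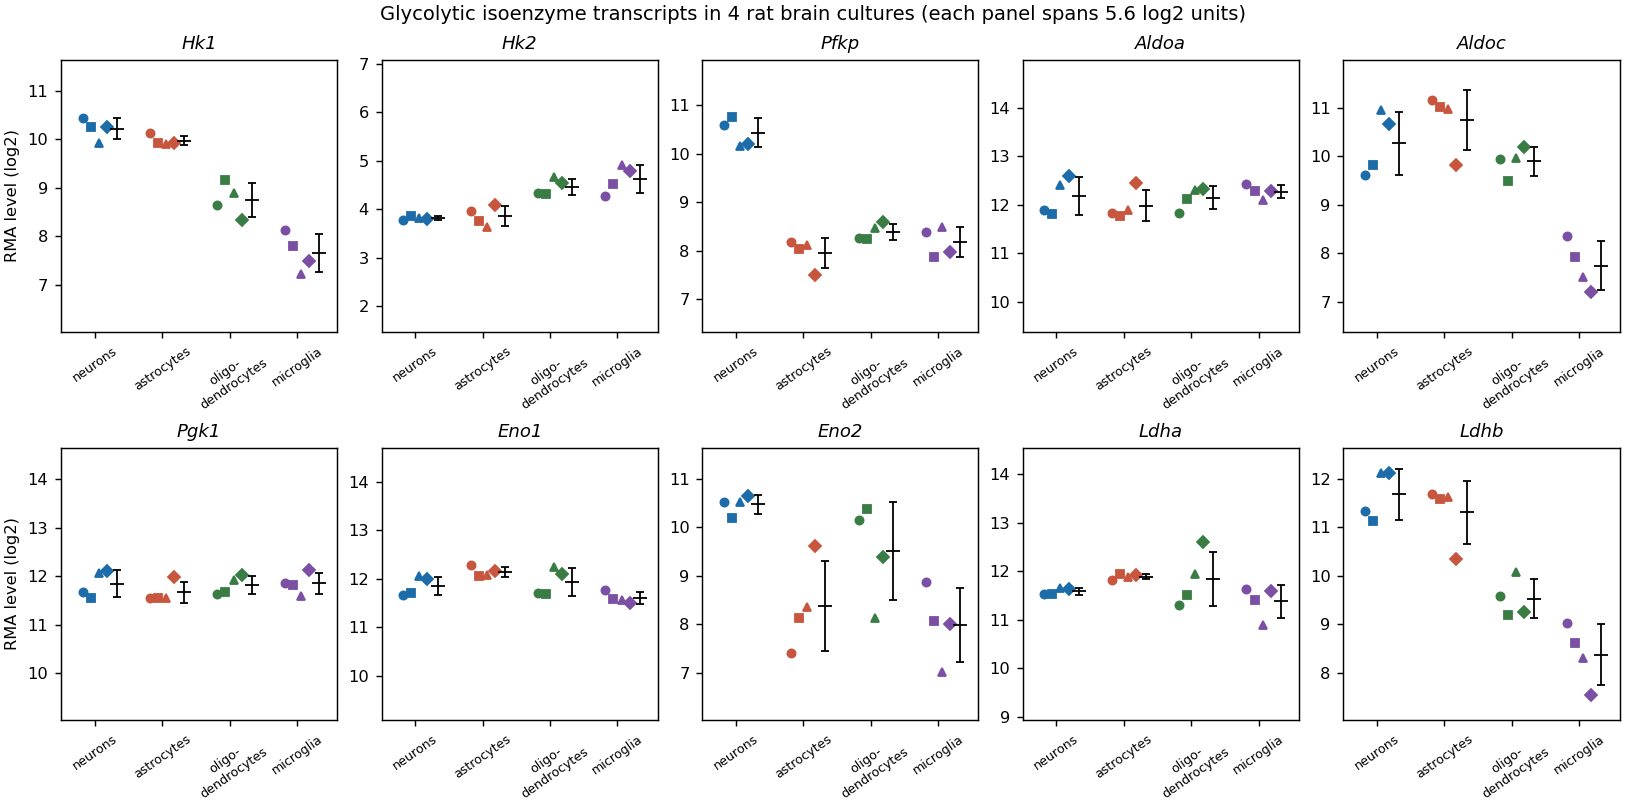
RMA log2 level of each of the 10 transcripts on the 16 culture arrays (circle, square, triangle and diamond are replicates 1 to 4), with the mean and SD of each culture beside the points. Pfkp stood above every other culture in neurons, Hk1, Aldoc and Ldhb were lowest in microglia, and Aldoa and Pgk1 spanned 0.84 and 0.58 log2 units over all 16 arrays.

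Hk1, the hexokinase that starts glucose use in brain, was highest in neurons and astrocytes and stepped down in the other cultures. Its level was 10.44, 10.24, 9.92 and 10.25 in neuronal cultures, 10.12, 9.93, 9.90 and 9.93 in astrocytic, 8.64, 9.15, 8.88 and 8.33 in oligodendrocytic and 8.13, 7.79, 7.22 and 7.48 in microglial cultures. Neurons and astrocytes overlapped and did not differ past the threshold (log2 difference 0.24 ± 0.19, SE, limma adjusted p = 0.36), whereas the remaining neighbours did not overlap. Hk1 was higher in neurons than in oligodendrocytic cultures by 1.46 ± 0.19 (adjusted p = 1.35e-05) and than in microglia by 2.56 ± 0.19 (adjusted p = 2.01e-08), a 5.89-fold difference. Astrocytes exceeded oligodendrocytic cultures by 1.22 ± 0.19 (adjusted p = 0.000132) and microglia by 2.32 ± 0.19 (adjusted p = 1.67e-07). The step between oligodendrocytic and microglial cultures was 1.09 ± 0.19 (limma adjusted p = 0.000624). It fell under the minimum of 1 without oligodendrocyte replicate 2 (0.96), without microglia replicate 3 (0.95) or with array weights (0.96).

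Separate quality-control probe sets on the array, named for hexokinase by the manufacturer, ran in the same order. The 3′ control set averaged 8.07 ± 0.21 in neurons, 7.84 ± 0.50 in astrocytes, 6.62 ± 0.27 in oligodendrocytic and 5.45 ± 0.10 in microglial cultures (SD, n = 4 each). The gap between the 3′ and 5′ hexokinase sets is a sign of RNA or labelling quality. It averaged 1.305 in neurons, 1.295 in astrocytes, 0.92 in oligodendrocytic and 0.67 in microglial cultures. These averages were larger in the cultures with a higher mean of Hk1. In microglia the 5′ set was 4.84, 4.97, 4.65 and 4.65, below the array medians, and the 3′ set was 5.34 to 5.58. The microglial gap is therefore no firm measure of quality. Inside the cultures, Hk1 and the gap did not run 1 way. In oligodendrocytic replicates 1 to 4 the gaps were 0.92, 1.10, 0.95 and 0.69, larger where Hk1 was higher. In microglial replicates they were 0.58, 0.61, 0.79 and 0.68, smaller where Hk1 was higher. The neuronal gaps were 1.85, 1.12, 1.13 and 1.12, largest in the array with the highest Hk1. In astrocytic replicates 1 to 4 the 3′ set was 8.28, 7.83, 8.11 and 7.15, with gaps of 0.80, 1.15, 1.33 and 1.90. The 3′ set is itself 1 term of the gap. The same gap for GAPDH lay between 0.24 and 0.33 on average in the 4 cultures, and for beta-actin between 1.28 and 1.82. Their part in the differences between cultures was not tested. A further Hk1 probe set stayed between 4.07 and 4.77 on every culture array, below the array medians. With the mean of both probe sets, some Hk1 differences fell under the minimum of 1 and lost their calls. These were neurons over oligodendrocytic cultures (0.69), astrocytes over oligodendrocytic cultures (0.64) and oligodendrocytic cultures over microglia (0.42).

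Hk2, the hexokinase of muscle and fat that hypoxia induces in many cells, lay below the array median on all 26 arrays. It was 3.78 to 3.87 in neurons, 3.63 to 4.08 in astrocytes, 4.32 to 4.66 in oligodendrocytic and 4.27 to 4.92 in microglial cultures. Neurons and astrocytes did not overlap with the other cultures, and limma gave adjusted p-values of 0.00122 and 0.000157 for neurons against oligodendrocytic cultures and microglia, with log2 differences of -0.65 ± 0.14 and -0.80 ± 0.14 that miss the minimum of 1. All of these levels lie below the array medians, so they give no firm measure of Hk2.

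Pfkp, a phosphofructokinase subunit found in brain and platelets, was the member that set neurons apart from every other culture. Its level was 10.60, 10.76, 10.15 and 10.20 in neuronal cultures, against 8.17, 8.04, 8.11 and 7.50 in astrocytic, 8.26, 8.25, 8.46 and 8.59 in oligodendrocytic and 8.39, 7.87, 8.48 and 7.98 in microglial cultures. Every neuronal array lay above every array of the other 3 cultures. Pfkp was higher in neurons than in astrocytes by 2.47 ± 0.18 (SE, limma adjusted p = 2.38e-08), a 5.54-fold difference. It exceeded oligodendrocytic cultures by 2.04 ± 0.18 (adjusted p = 2.46e-07) and microglia by 2.24 ± 0.18 (adjusted p = 5.51e-08). Among the 3 glial cultures, no difference in Pfkp was called. Pfkm, another phosphofructokinase subunit and known as the muscle type, followed a different order, with means of 10.19 ± 0.33 in neurons, 9.40 ± 0.63 in astrocytes, 7.67 ± 0.35 in oligodendrocytic and 6.70 ± 0.35 in microglial cultures (SD, n = 4 each). Pfkm was higher in neurons than in microglia by 3.49 ± 0.28 (adjusted p = 4.57e-08) and higher in astrocytes than in microglia by 2.70 ± 0.28 (adjusted p = 1.93e-06), while Pfkl, the liver type, was called only for astrocytes over oligodendrocytic cultures (1.07 ± 0.31, adjusted p = 0.0144) among the 6 comparisons.

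The aldolase genes behaved differently. Aldoa, the aldolase of muscle and most tissues, was within 11.76 to 12.60 on all 16 culture arrays, and the means of the 4 cultures spanned 0.29 log2 units. No Aldoa difference between cultures passed the threshold (smallest adjusted p 0.244). Aldoc, the brain aldolase that marks astrocytes and Purkinje cells in tissue, was 9.61, 9.81, 10.96 and 10.67 in neuronal, 11.16, 11.02, 10.97 and 9.82 in astrocytic, 9.94, 9.48, 9.96 and 10.19 in oligodendrocytic and 8.35, 7.92, 7.50 and 7.20 in microglial cultures. Microglia were below every array of the other cultures, and the first 3 cultures overlapped. Astrocytes exceeded microglia in Aldoc by 3.0 ± 0.35 (SE, limma adjusted p = 5.23e-06), neurons exceeded them by 2.52 ± 0.35 (adjusted p = 1.54e-05) and oligodendrocytic cultures by 2.15 ± 0.35 (adjusted p = 0.000301).

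Aldoc also varied inside 2 of the cultures. Neuron replicates 3 and 4 averaged 1.11 above replicates 1 and 2, and these are the arrays with the higher astrocyte marker means given above. Their part in the neuronal level of Aldoc was not tested. Astrocyte replicate 4 was 1.23 below the mean of the other 3 astrocytic arrays. Without astrocyte replicate 4, Aldoc in astrocytes exceeded oligodendrocytic cultures by 1.16 and was called (limma adjusted p = 0.00942), against 0.85 ± 0.35 and an adjusted p of 0.0721 with it.

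Pgk1, which makes the first ATP of the pathway and is encoded on the X chromosome, was the flattest transcript of the 10. It lay between 11.55 and 12.13 on the 16 culture arrays, and the culture means spanned 0.18 log2 units with no called difference (smallest adjusted p 0.376). Another Pgk1 probe set lay at 10.23 to 11.14 and a further one at 2.76 to 3.10. Over the 14217 genes, the gene whose centred profile across the 16 culture arrays lay nearest to that of Pgk1 was Aldoa, and Pgk1 was nearest to Aldoa, with a root mean square difference of 0.121. The next nearest were Ndufa2 (0.163) and Cul3 (0.168) to Aldoa, and Calr4 (0.150) and Dux4 (0.154) to Pgk1. Calr4 and Dux4 averaged 4.17 and 4.23 in astrocytes, below the array medians, so a small distance here is also shared by flat, dim probe sets.

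Eno1, the enolase of most tissues, stayed between 11.50 and 12.29, with means of 12.15 ± 0.11 in astrocytes, 11.94 ± 0.28 in oligodendrocytic cultures, 11.86 ± 0.20 in neurons and 11.61 ± 0.12 in microglia (SD, n = 4 each). Astrocytes exceeded microglia in Eno1 with an adjusted p of 0.00524, at a log2 difference of 0.54 ± 0.14 that is below the minimum of 1. Eno2 was 10.53, 10.19, 10.52 and 10.65 in neuronal, 7.40, 8.13, 8.36 and 9.61 in astrocytic, 10.14, 10.38, 8.12 and 9.39 in oligodendrocytic and 8.87, 8.07, 7.01 and 8.01 in microglial cultures. The neuronal arrays lay close together (SD 0.20), while the SD was 0.92 in astrocytic, 1.02 in oligodendrocytic and 0.76 in microglial cultures. Oligodendrocyte replicate 2 fell within the neuronal range, and astrocyte replicate 4 was 1.64 above the mean of the other 3 astrocytic arrays. Eno2 was higher in neurons than in astrocytes by 2.10 ± 0.51 (SE, limma adjusted p = 0.0028) and than in microglia by 2.49 ± 0.51 (adjusted p = 0.000647). Against oligodendrocytic cultures the neuronal difference was 0.97 ± 0.51 (adjusted p = 0.152) and was not called. Neuron markers summed to at most 11.64 on the log2 scale in oligodendrocytic cultures, and 6 of the 13 lay below every array median there. Others were higher, with means of 10.66 for Map2, 8.19 for Tubb3 and 7.51 for Dcx. The part of neuronal RNA in the Eno2 level of these cultures was not tested.

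The remaining Eno2 comparisons depended on single arrays. Oligodendrocytic cultures exceeded microglia by 1.52 ± 0.51 (limma adjusted p = 0.0364), with overlapping arrays, and the call was lost without any of oligodendrocyte replicates 1, 2 and 4 or microglia replicates 2, 3 and 4 (differences of 1.19 to 1.56 with adjusted p-values of 0.0597 to 0.124). Astrocytes were 1.13 ± 0.51 below oligodendrocytic cultures (adjusted p = 0.102), and lower by a called 1.54 without astrocyte replicate 4 (adjusted p = 0.0199) or 1.60 without oligodendrocyte replicate 3 (adjusted p = 0.0148).

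Ldha, whose product favours lactate formation, differed little between the cultures, with means of 11.58 ± 0.07 in neurons, 11.89 ± 0.06 in astrocytes, 11.84 ± 0.56 in oligodendrocytic cultures and 11.38 ± 0.35 in microglia (SD, n = 4 each). None of the 6 differences in Ldha was called (smallest adjusted p 0.0804), although the astrocytic arrays lay above all neuronal and all microglial ones. Ldhb, the subunit prominent in heart and brain, was 11.34, 11.13, 12.13 and 12.12 in neuronal, 11.70, 11.58, 11.62 and 10.34 in astrocytic, 9.59, 9.20, 10.09 and 9.26 in oligodendrocytic and 9.03, 8.62, 8.30 and 7.54 in microglial cultures. Neurons and astrocytes overlapped, and both lay above all oligodendrocytic and microglial arrays. Inside the cultures, neuron replicates 3 and 4 averaged 0.89 above replicates 1 and 2, and astrocyte replicate 4 was 1.29 below the other 3 astrocytic arrays, as for Aldoc. Ldhb had the widest spread of culture means of the 10 transcripts, at 3.31 log2 units.

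Neurons exceeded microglia in Ldhb by 3.31 ± 0.36 (SE, limma adjusted p = 1.28e-06), a 9.91-fold difference, and oligodendrocytic cultures by 2.15 ± 0.36 (adjusted p = 0.000145). Astrocytes exceeded microglia by 2.94 ± 0.36 (adjusted p = 1.01e-05) and oligodendrocytic cultures by 1.78 ± 0.36 (adjusted p = 0.00113). Neurons and astrocytes differed by 0.37 ± 0.36 (adjusted p = 0.46). Oligodendrocytic cultures exceeded microglia by 1.16 ± 0.36 (adjusted p = 0.0263), a call that was lost without oligodendrocyte replicate 1 (1.14, adjusted p = 0.0577), oligodendrocyte replicate 3 (0.97, adjusted p = 0.0751), microglia replicate 3 (1.14, adjusted p = 0.0612) or microglia replicate 4 (0.88, adjusted p = 0.0908). The gene nearest to Ldhb in profile was Pfkm (root mean square difference 0.263 over 16 arrays), followed by Gabbr1 (0.321) and Usp2 (0.401). The 3 genes nearest to Hk1 were Bcr (0.258), Zfp612 (0.266) and Cpt1c (0.305), and those nearest to Pfkp were Gpr61 (0.215), Agap2 (0.260) and Klhl8 (0.266).

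**Figure D2:**
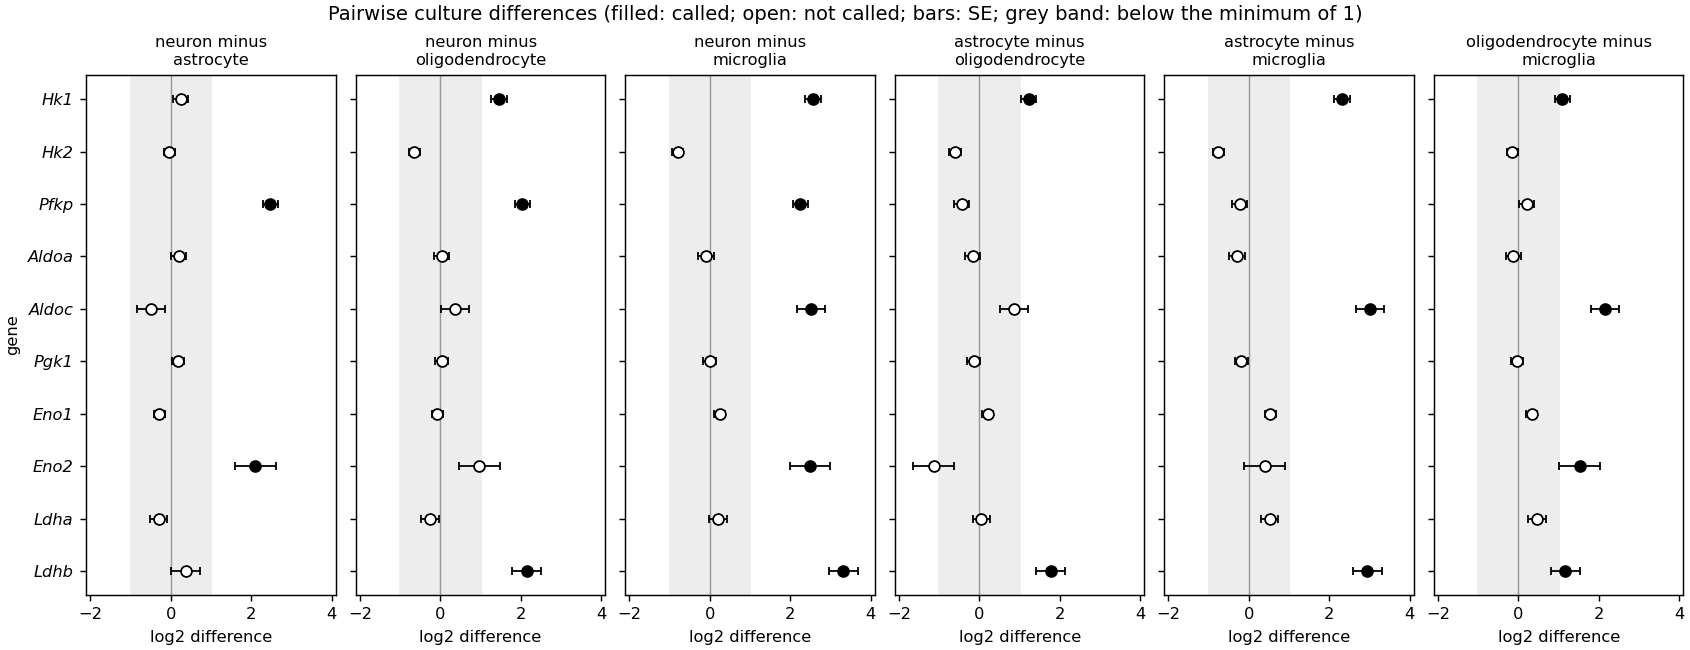
Log2 differences between each pair of cultures for the 10 genes, as the mean of the culture named first minus that of the culture named after it, with SE bars. Filled points were called, open points were not, and the grey band spans differences below 1 in size. All called points lie to the right of the band, and Hk2, Aldoa, Pgk1, Eno1 and Ldha have none.

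The balance of each isoenzyme pair was taken as the difference of the 2 log2 levels on the same array, and the 4 balances were compared between the 6 pairs of cultures with a 2-sided exact permutation test. The zero of a balance depends on the probe sets, so only its change between cultures has meaning. With 4 arrays against 4 the smallest possible p is 0.0286. It was reached in 13 of the 24 comparisons, all of those without overlapping arrays, and adjustment over the 24 gave 0.0527, so 0 of 24 passed 0.05. The sizes and the arrays are therefore described.

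The Ldha minus Ldhb balance was 0.18, 0.40, -0.47 and -0.50 in neuronal, 0.12, 0.36, 0.25 and 1.59 in astrocytic, 1.72, 2.32, 1.85 and 3.33 in oligodendrocytic and 2.60, 2.78, 2.57 and 4.05 in microglial cultures. Every neuronal and astrocytic array lay below every oligodendrocytic and microglial one. The mean difference was -3.10 ± 0.42 for neurons against microglia, which is an 8.58-fold shift of the ratio toward Ldhb in neurons, and -2.42 ± 0.49 for astrocytes against microglia (SE, exact permutation p = 0.0286 each). The culture means of Ldha spanned 0.51 log2 units and those of Ldhb 3.31.

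The Hk1 minus Hk2 balance averaged 6.39 ± 0.23 in neurons, 6.11 ± 0.18 in astrocytes, 4.28 ± 0.43 in oligodendrocytic cultures and 3.04 ± 0.68 in microglia (SD, n = 4 each), and with Hk2 below the array medians it carries mainly Hk1. The Aldoa minus Aldoc balance was 2.29, 2.00, 1.44 and 1.93 in neuronal, 0.65, 0.74, 0.91 and 2.63 in astrocytic, 1.89, 2.63, 2.35 and 2.15 in oligodendrocytic and 4.08, 4.36, 4.60 and 5.08 in microglial cultures. Microglia lay above all other arrays, by 3.30 ± 0.51 over astrocytes on average, and astrocyte replicate 4 stood apart from the other 3 astrocytic arrays. Those 3, at 0.65 to 0.91, lay below every neuronal and oligodendrocytic array, while the astrocytic means here include replicate 4. The Eno1 minus Eno2 balance was lowest in neurons, at 1.14, 1.51, 1.53 and 1.35, against 4.89, 3.92, 3.72 and 2.55 in astrocytic and 2.91, 3.53, 4.56 and 3.49 in microglial cultures. The difference was -2.39 ± 0.49 for neurons against astrocytes and -2.24 ± 0.35 for neurons against microglia (SE, exact permutation p = 0.0286 each), while oligodendrocytic cultures ran from 1.31 to 4.13 and overlapped with all 3 other cultures.

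**Figure D3:**
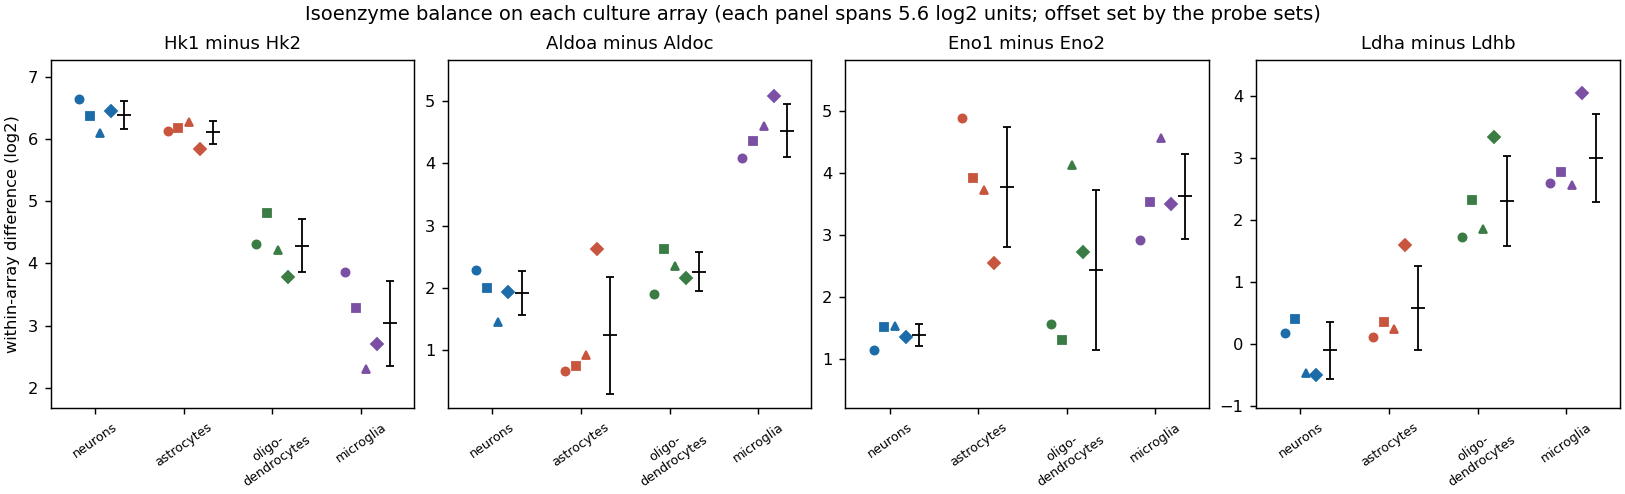
Within-array log2 difference of each isoenzyme pair on the 16 culture arrays (circle, square, triangle and diamond are replicates 1 to 4), with the mean and SD of each culture beside the points. The Ldha minus Ldhb and Aldoa minus Aldoc balances were highest in microglia, Eno1 minus Eno2 was lowest in neurons, and astrocyte replicate 4 lay apart at 2.63 for the aldolases and 1.59 for lactate dehydrogenase.

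The rest of the pathway was read from a list of other glycolytic enzymes, of which 14 of 21 genes had a probe set of their own. In neurons against astrocytes 0 were higher and 3 lower, beside 12% and 12% of all probe sets. Against oligodendrocytic cultures 1 was higher and 1 lower in neurons (11% and 10.6%), and against microglia 2 and 1 (14.1% and 11.6%). Astrocytes were higher in 3 and lower in 0 against both oligodendrocytic cultures (8.04% and 7.85%) and microglia (9.13% and 7.05%). Oligodendrocytic cultures were higher than microglia in 1 (6.27% of all probe sets higher). The list's median log2 difference lay between -0.11 and 0.35 in the 6 comparisons, beside -0.10 to -0.01 for all probe sets. Bpgm, which makes 2,3-bisphosphoglycerate, was lower in microglia than in all 3 other cultures, by 1.33 ± 0.14 relative to neurons (limma adjusted p = 6.39e-07). Adpgk, an ADP-dependent glucokinase, was lower in neurons, by 1.16 ± 0.17 relative to astrocytes (adjusted p = 3.82e-05). Eno3, the muscle enolase, was higher in astrocytes than in microglia by 2.13 ± 0.25 (adjusted p = 6.6e-06). Gpi, Tpi1 and Pgam1, isomerases and a mutase of the pathway, were not called in any of the 6 comparisons, although Pgam1 was higher in neurons than in microglia by 0.86 ± 0.12 with an adjusted p of 2.31e-05. Gapdh was read on control probe sets alone, whose 3′ set averaged 12.67 ± 0.09 in neurons, 12.54 ± 0.07 in astrocytes, 12.41 ± 0.20 in oligodendrocytic and 12.17 ± 0.16 in microglial cultures (SD, n = 4 each).

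Single transporters and a regulator of the pathway differed between cultures. Slc2a3, the neuronal glucose transporter, averaged 8.66 ± 0.19 in neurons, against 5.02 ± 0.51 in astrocytes, 4.03 ± 0.17 in oligodendrocytic and 4.25 ± 0.32 in microglial cultures (SD, n = 4 each). Slc2a1, the glucose transporter of endothelium and astrocytes, averaged 6.88 ± 0.34 in neurons and 10.15 ± 0.53 in astrocytes, a difference of -3.26 ± 0.24 (SE, limma adjusted p = 1.71e-08). Pfkfb3, which makes the activator of phosphofructokinase, averaged 6.58 ± 0.21 in neurons and 10.64 ± 0.18 in astrocytes (difference -4.05 ± 0.21, adjusted p = 3.46e-10), and it was lower in neurons than in all 3 glial cultures. It was the only call of the 5 measured regulators between neurons and astrocytes (0 higher and 1 lower). Of all probe sets, 12% were higher and 12% lower there. Pfkfb2 (0.999 ± 0.198) and Pfkfb4 (0.66 ± 0.14), enzymes of the same family, had positive differences below the minimum of 1. Pfkfb1, also of that family, had a negative one of -0.85 ± 0.19 (adjusted p = 0.00136) that missed the minimum too. Its means were 4.31 in neurons and 5.16 in astrocytes. Of the lactate carriers, Slc16a1 was lower in neurons than in astrocytes by 2.23 ± 0.32 (adjusted p = 2.43e-05) and Slc16a7 was higher by 2.27 ± 0.26 (adjusted p = 2.68e-06). Slc16a7 was higher in microglia than in astrocytes and oligodendrocytic cultures as well. Over the list of 11 transporters, 3 were higher and 2 lower in neurons than in astrocytes, with a median difference of 0.06. All probe sets had 12% and 12% there. In neurons, 3 were higher and 1 lower than in oligodendrocytic cultures (11% and 10.6%), and 2 and 2 than in microglia (14.1% and 11.6%). In astrocytes, 3 were higher and 0 lower than in oligodendrocytic cultures (8.04% and 7.85%), and 3 and 2 than in microglia (9.13% and 7.05%). Oligodendrocytic cultures were higher in 0 and lower in 1 than microglia (6.27% and 4.29%).

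Among 15 measured genes of pyruvate entry and gluconeogenesis, 2 were higher and 2 lower in neurons than in astrocytes. All probe sets had 12% and 12% there. In neurons, 3 were higher and 0 lower than in either oligodendrocytic cultures (11% and 10.6%) or microglia (14.1% and 11.6%). In astrocytes, 4 were higher and 2 lower than in oligodendrocytic cultures (8.04% and 7.85%), and 4 and 0 than in microglia (9.13% and 7.05%). In oligodendrocytic cultures 0 were higher and 1 lower than in microglia (6.27% and 4.29%). Pdha1, a subunit of pyruvate dehydrogenase, was higher in neurons than in microglia by 2.15 ± 0.14 (limma adjusted p = 2.71e-09). Pdk2, a kinase that restrains pyruvate dehydrogenase, was lower in neurons than in astrocytes by 1.83 ± 0.25 (adjusted p = 1.66e-05), and Pdp1, a phosphatase that reactivates it, was higher in astrocytes than in microglia by 2.57 ± 0.30 (adjusted p = 5.11e-06).

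The mixtures tested whether the members followed the RNA fractions. The slope on the neuronal fraction over the 6 NA1, NA2 and NA3 arrays was called for 1 of 10 members (limma adjusted p under 0.05, no minimum, 14.3% of all probe sets called, 9.32% higher and 5.01% lower). Pfkp was 9.39 and 9.41 in NA1, 9.82 and 9.95 in NA2 and 10.35 and 10.26 in NA3, in replicates 1 and 2. It increased by 1.81 ± 0.20 (SE) per unit of neuronal fraction, with an adjusted p of 0.00421, and with the replicate number as a block the adjusted p was 0.00157. Eno2 was 9.29 and 9.69 in NA1, 9.65 and 9.91 in NA2 and 9.95 and 10.40 in NA3. Its slope was 1.37 ± 0.41 (adjusted p = 0.0795) and was called with the replicate block (1.37 ± 0.21, adjusted p = 0.00425), where the mixtures share their parent cultures within a replicate number. The block brought the call to 2 of 10 members and to 7503 of all probe sets, against 4447 without it.

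Ldhb and Aldoc ran in opposite ways in the 2 sets of mixtures. Ldhb was 11.64, 11.53 and 11.38 in NA1, NA2 and NA3 of replicate 1, and 10.53, 10.69 and 10.98 in those of replicate 2. The parents differed likewise, with Ldhb at 11.34 in neuron replicate 1 and 11.70 in astrocyte replicate 1, and at 11.13 in neuron replicate 2 and 10.34 in astrocyte replicate 4. Aldoc was 10.92, 10.61 and 10.14 in replicate 1 and 9.71, 9.75 and 9.85 in replicate 2. The pooled slopes of 0.18 ± 0.83 for Ldhb (adjusted p = 0.927) and -0.64 ± 0.87 for Aldoc (adjusted p = 0.728) were therefore averages of runs in opposite directions.

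No member was called for NAO minus NA2, in which astrocytic RNA is replaced in part by oligodendrocytic RNA (limma, 0 of 10, and 0 of 10 at an unadjusted p under 0.05, with 1.1% of all probe sets called, 0.902% higher and 0.197% lower). The same held for NAOM minus NAO, in which microglial RNA is added at a fraction of 0.1 (0 of 10, 0 at an unadjusted p under 0.05, 0.0419% of all probe sets called, all of them higher). With the replicate block these comparisons also gave 0 of 10, while the calls among all probe sets came to 1077 and 37, against 341 and 13 without it. The largest member differences were 0.30 ± 0.21 for Eno2 in NAO minus NA2 and -0.14 ± 0.13 for Hk2 and -0.14 ± 0.42 for Aldoc in NAOM minus NAO.

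Each mixture array was also set against the fraction-weighted sum of the linear levels of its own parent arrays. Of 100 values (10 members on 10 arrays), 91 lay within 0.25 log2 units of the expected level and all 100 within 0.5. The median absolute deviation was 0.068 for the members and 0.155 for all probe sets, dim ones included. The signed median was 0.02 for the members and -0.12 for all probe sets, so the latter carry a shift. With median centring the member value was 0.108. Ldhb deviated by at most 0.10 and Aldoc by at most 0.12, although their levels differed by over 1 log2 unit between the replicate sets of NA1. Aldoa was above the expected level on 10 of 10 arrays, by a median of 0.24. This value was 0.13 with median centring and 0.12 with culture means as parents. Hk2 was below its expected level on 9 of 10 arrays. Its median deviation of -0.11 was close to the -0.12 of all probe sets, so the count does not set Hk2 apart. The 10 arrays share 2 sets of parents and are not independent.

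**Figure D4:**
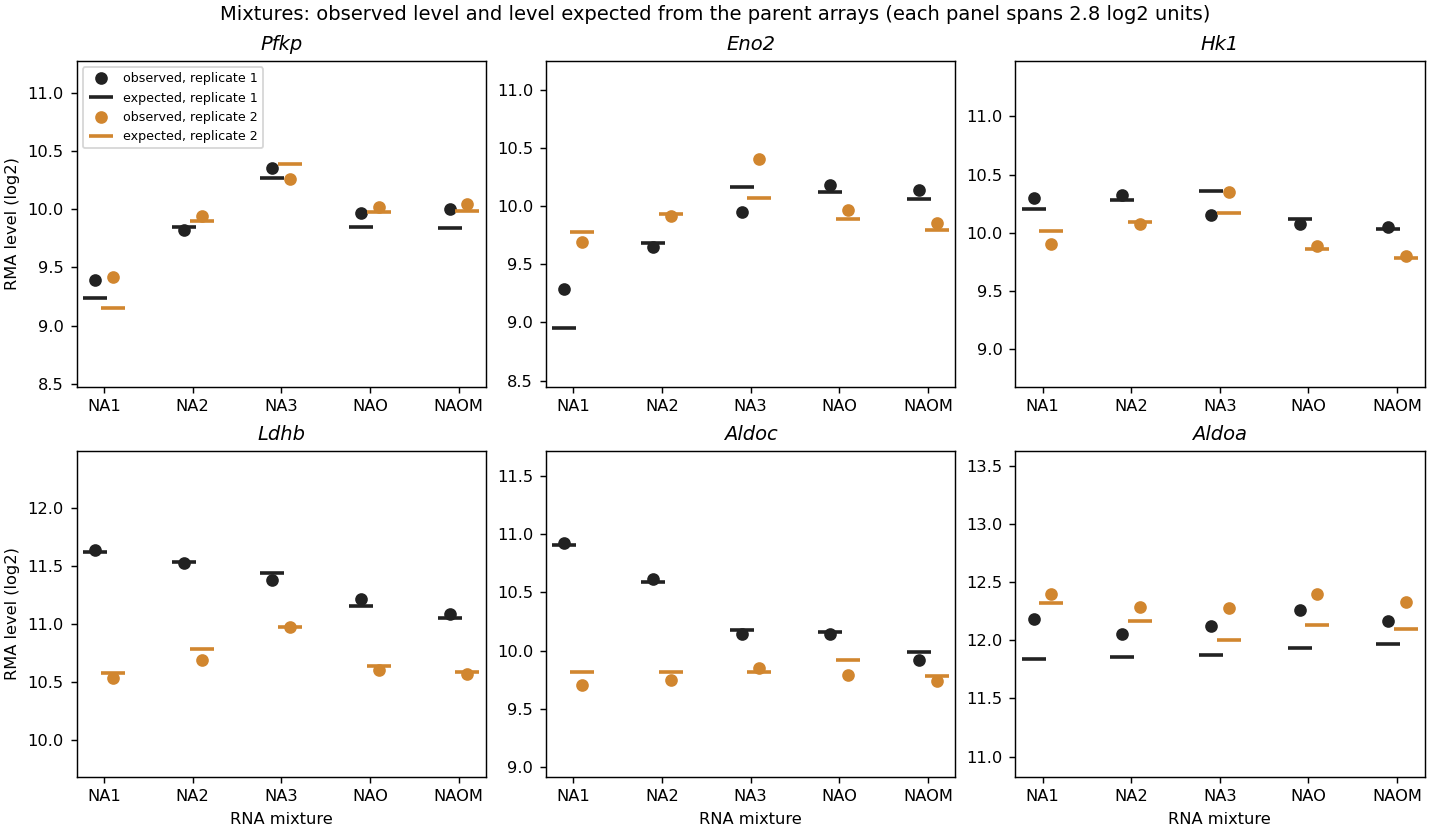
RMA log2 level of 6 transcripts in the RNA mixtures NA1, NA2, NA3, NAO and NAOM (dots), with the level expected from the parent arrays at the stated fractions (bars), for replicates 1 and 2. Pfkp rises with the neuronal fraction in both replicates, Ldhb and Aldoc differ between the replicates as their parents did, and Aldoa lies above the bars on all 10 arrays.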

How the data were processed

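Values were log2 levels on 26 Affymetrix arrays, made by the authors with RMA in the affy package, per the submitters' processing notes, whose versions are not given in the sources used here. The deposited log2 values were used unchanged. The table had 31099 probe sets, and the fits used the 31042 that were not controls (57), whatever their level. For each gene, the brightest probe set on average among those with 1 symbol was used, and 20826 probe sets carried 1 symbol, 436 several and 9780 none. Pkm was read only on a probe set with several symbols and is not named with values.

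limma 3.58.1 in R 4.3.3 (lmFit and eBayes) was fitted with 1 mean per culture over 16 arrays, and 1 mean per mixture or a slope on the neuronal fraction for mixtures. Benjamini-Hochberg adjustment ran over all tested probe sets. Isoenzyme balances were compared by exact permutation. Likeness of profiles was the root mean square difference of gene-centred log2 levels over the 16 culture arrays, with the 3 nearest of 14217 genes. The text names the 10 members, genes of the lists and these nearest genes. The number of arrays limits the precision, and no label says that replicates came from separate cultures or animals, so p-values measure only the spread between these arrays. The limma step was also run on simulated data with known changes.

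Replicate numbers were checked on residuals: same-numbered cultures correlated between -0.107 and 0.178 and were not treated as paired. Mixtures correlated between 0.381 and 0.873 and share parents by the labels, so blocked values are given where they matter. Alternatives were other normalizations, variance models, filters, minima, probe sets, parents and leaving out each array. Python 3.11.15, pandas 2.3.3, numpy 2.4.6 and matplotlib 3.10.9 were also used. The members, lists and comparisons were chosen with earlier results of these data known.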

Additional observations from a re-analysis of the deposited data

Results flagged for a closer look

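In each group of 4 culture arrays, the gap of the highest or lowest array to its neighbour was set against the group's range. Dixon's critical value of 0.829 was exceeded in 7 of 56 groups, where chance gives about 1 in 20 for a single group. The groups share arrays, and the balances reuse the values of the genes, so these are not 56 independent trials. Astrocyte replicate 4 accounted for 5 of the 7. Aldoc was 9.82 there against 10.97 to 11.16 in the other astrocytic arrays, Ldhb was 10.34 against 11.58 to 11.70, and Pgk1 was 11.99 against 11.55 to 11.56. The Aldoa minus Aldoc balance was 2.63 in that array against 0.65 to 0.91, and the Ldha minus Ldhb balance was 1.59 against 0.12 to 0.36. The 14 hypoxia-inducible genes outside glycolysis did not move 1 way in this array: 6 lay above all other astrocytic arrays, 4 below and 4 between. Car9, a carbonic anhydrase, was 10.77 against 6.78 to 7.82 and P4ha1, a collagen hydroxylase, 11.31 against 8.90 to 9.41, while Egln3, an oxygen-sensing hydroxylase, was 7.95 against 9.03 to 9.16 and Kdm3a, a histone demethylase, 7.62 against 8.51 to 8.69. Ldha was 11.93 against 11.81 to 11.94. The fibroblast and meningeal marker mean of this array was 8.40 against 6.24 to 6.30. Its gaps between 3′ and 5′ control sets were the largest of the astrocytic arrays. They were 1.90 against 0.80 to 1.33 for hexokinase, 0.58 against 0.16 to 0.29 for GAPDH and 2.00 against 1.11 to 1.61 for beta-actin. The part of all these in the isoenzyme levels was not tested. Hk1 in astrocyte replicate 1 was 10.12 against 9.90 to 9.93. The Ldha minus Ldhb balance in microglia replicate 4 was 4.05 against 2.57 to 2.78.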

How the results depend on the processing

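Precision is limited by 4 arrays per culture and 2 per mixture, and Hk2, below every array median, gives no firm level. Of 1487 limma differences or slopes of single members under the alternatives, 48 changed sign, 0 of them called in the result as reported, and 23 calls were lost and 11 gained, with balances and deviations from parents counted apart. Where a call or sign changed, the cause was not tested, beyond the changed minimum or number of arrays.

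With no minimum, 13747, 12826, 15903, 10637, 11928 and 8358 probe sets were called in the 6 culture comparisons (in the order neurons against astrocytes, oligodendrocytic cultures and microglia, astrocytes against oligodendrocytic cultures and microglia, oligodendrocytic cultures against microglia), and the members for astrocytes against microglia came to 5. With a minimum of 2 these were 3329, 2752, 3734, 1918, 2054 and 823, with 0 members for astrocytes against oligodendrocytic cultures and 1 for oligodendrocytic cultures against microglia. Astrocytes against oligodendrocytic cultures gave 4 members with array weights and 1 with the mean of a gene's probe sets. With the replicate block, no member call between cultures changed, the slope gave 2 members and 7503 probe sets, NAO minus NA2 gave 1077 and NAOM minus NAO 37. In NAOM minus NAO, 8 were called without the dimmest 25% and 24 with trended and robust variance. The sign-flip test of balances paired by replicate number cannot reach 0.05 with 4 pairs. The median absolute deviation of members from their parents was 0.153 with culture means as parents, 0.138 with mixing on the log2 scale and 0.108 with median centring.

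Uncalled values that changed sign were Hk2 for neurons against astrocytes (0.0625) and Pgk1 for neurons against microglia (0.0389) with array weights, Pgk1 for neurons against oligodendrocytic cultures with the mean of its probe sets (-0.0297) or the one with the largest SD (-0.0711), Aldoa (0.0809) and Pgk1 (0.0464) for neurons against microglia with quantile normalization, Pgk1 in NAO minus NA2 with median centring (-0.0188), and Hk1 in NAOM minus NAO with the mean of its probe sets (0.0226).

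Leaving out 1 array at a time gave 2 to 4 members for astrocytes against oligodendrocytic cultures, 1 to 4 for oligodendrocytic cultures against microglia, and the reported number in the other comparisons. Over all probe sets, the slope gave 2246 to 3385 calls, NAO minus NA2 113 to 175 and NAOM minus NAO 1 to 15. Some uncalled values spanned 0. These were Hk2 (-0.12 to 0.0321) for neurons against astrocytes, Aldoa (-0.11 to 0.15), Pgk1 (-0.0521 to 0.13) and Eno1 (-0.16 to 0.0218) for neurons against oligodendrocytic cultures, Aldoa (-0.23 to 0.0268) and Pgk1 (-0.0910 to 0.0891) for neurons against microglia and Ldha (-0.12 to 0.30) for astrocytes against oligodendrocytic cultures. Astrocytes against microglia gave Eno2 (-0.0223 to 0.71), and oligodendrocytic cultures against microglia Pgk1 (-0.12 to 0.0524). The slopes were Hk1 (-0.0563 to 0.62), Aldoa (-0.36 to 0.0466), Aldoc (-1.70 to 0.39), Pgk1 (-0.42 to 0.12) and Ldhb (-0.76 to 1.14). NAO minus NA2 gave Aldoc (-0.64 to 0.22), Pgk1 (-0.0868 to 0.0966), Ldha (-0.10 to 0.36) and Ldhb (-0.62 to 0.22), and NAOM minus NAO Hk1 (-0.18 to 0.0700), Aldoc (-0.32 to 0.0366), Eno2 (-0.22 to 0.0608), Ldha (-0.27 to 0.19) and Ldhb (-0.39 to 0.22). The Eno1 minus Eno2 balance of astrocytes against microglia gave -0.23 to 0.55.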

Other observations

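Side branches of glucose use held some called genes. Of 8 measured genes of glycogen metabolism, 0 were higher and 4 lower in neurons than in astrocytes, with a median log2 difference of -0.99 against -0.03 for all probe sets, of which 12% were higher and 12% lower. The other counts are given with the shares of all probe sets. Neurons had 1 higher and 1 lower against oligodendrocytic cultures (11% and 10.6%), and 0 and 1 against microglia (14.1% and 11.6%). Astrocytes had 4 and 1 against oligodendrocytic cultures (8.04% and 7.85%), and 3 and 1 against microglia (9.13% and 7.05%). Oligodendrocytic cultures had 0 and 0 against microglia (6.27% and 4.29%). Gbe1, the glycogen branching enzyme, was lower in neurons than in astrocytes by 1.55 ± 0.21 (limma adjusted p = 1.4e-05). Gys1, glycogen synthase, was lower in neurons than in astrocytes by 1.16 ± 0.16 (adjusted p = 1.58e-05). Pygl, the liver glycogen phosphorylase, averaged 4.70 ± 0.14 in neurons and 5.68 ± 0.27 in astrocytes, and 8.12 ± 0.69 and 8.20 ± 0.40 in oligodendrocytic and microglial cultures (SD, n = 4 each). Pygb, the brain form, was higher in astrocytes than in oligodendrocytic cultures by 2.26 ± 0.17 (adjusted p = 6.41e-08).

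Of 6 measured genes of the pentose phosphate pathway, 0 were higher and 3 lower in neurons than in microglia (14.1% and 11.6% of all probe sets), 0 and 2 in neurons than in oligodendrocytic cultures (11% and 10.6%), and 0 and 1 in neurons than in astrocytes (12% and 12%). None of the 6 was called by limma in the 3 comparisons among glial cultures (15.9%, 16.2% and 10.6% of all probe sets). There, Pgd in astrocytes minus microglia (-0.97 ± 0.21, limma adjusted p = 0.00161) fell short of the minimum of 1. Pgd, which makes NADPH, was lower in neurons than in microglia by 2.14 ± 0.21 (limma adjusted p = 3.62e-07), and it was also lower than in astrocytes (1.17 ± 0.21, adjusted p = 0.000227). Of 14 hypoxia-inducible genes outside glycolysis, 1 was higher and 6 lower in neurons than in astrocytes (12% and 12% of all probe sets). In neurons, 2 were higher and 5 lower than in oligodendrocytic cultures (11% and 10.6%), and 4 and 5 than in microglia (14.1% and 11.6%). In astrocytes, 2 were higher and 0 lower than in oligodendrocytic cultures (8.04% and 7.85%), and 5 and 1 than in microglia (9.13% and 7.05%). Oligodendrocytic cultures were higher in 1 and lower in 1 than microglia (6.27% and 4.29%). Egln3, an oxygen-sensing hydroxylase, had a log2 difference of -1.87 ± 0.32 for neurons minus astrocytes (limma adjusted p = 0.000146) and of 1.28 ± 0.32 for neurons minus microglia (adjusted p = 0.00325).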
